A study of Mus musculus with 12 samples.

Results

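The genes described here encode the proteins that license replication origins and run the replication fork. They were chosen by symbol, 37 of the 35013 genes listed in the count table, and cover the MCM2-7 helicase, origin recognition, helicase loading and its control, origin firing, the sliding clamp and its loader, the polymerases and primase, the joining of Okazaki fragments, and the single-strand binding protein RPA. All 37 passed the filter on low counts and were tested, with 153 (Orc1) to 11203 counts per gene and library.

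Before S phase the origin recognition complex, Cdc6 and Cdt1 place rings of MCM2-7 on DNA, a step called licensing, and geminin, the product of Gmnn, binds Cdt1 to prevent it from happening again. At the start of S phase the kinase made of Cdc7 and Dbf4, together with Mcm10, Cdc45 and GINS, turns the loaded rings into active helicases. Primase and DNA polymerase alpha then start new strands, the RFC complex loads the PCNA clamp that holds polymerases delta and epsilon, RPA covers single-stranded DNA, and Fen1 and Lig1 trim and seal the fragments of the lagging strand. Many of these genes are known targets of E2F transcription factors, and their transcripts are abundant in dividing tumour cells.

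Poly-A RNA was sequenced from KP1 cells, a mouse line labelled LUAD (lung adenocarcinoma). The cells carried a vector overexpressing NRF2, the transcription factor of antioxidant defence, or an empty vector (EV), and each line was treated for 16 h with romidepsin at 5 nM, which inhibits class I histone deacetylases, or with its solvent DMSO. The 4 groups were thus NRF2 cells with romidepsin, EV cells with romidepsin, NRF2 cells with DMSO and EV cells with DMSO, with 3 libraries each, which the series design calls biological replicates. A library is named below by line, treatment and replicate number, as in EV-DMSO 2 or NRF2-ROM 3 (ROM for romidepsin). The labels give neither the promoter that drives NRF2 nor whether a line is 1 clone, and all groups share the KP1 background, so p-values cover only the variation among these cultures, which may be technical.

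Library totals for the 12 libraries ran from 16842824 to 28003010 counts. Nfe2l2, the gene of NRF2, averaged 349 ± 13.8 CPM in NRF2 cells with romidepsin, 96.3 ± 2.90 CPM in EV cells with romidepsin, 305 ± 40.7 CPM in NRF2 cells with DMSO and 102 ± 1.37 CPM in EV cells with DMSO (SD, n = 3). CPM, the usual depth-scaled count, uses each library's total over the genes tested times its TMM factor. NRF2-DMSO 3 stood apart: over all genes tested its root mean square log2 distance from the other 2 libraries of its group was 0.465, against 0.255 to 0.350 in the other 11 libraries. It also had the highest share of mitochondrial counts, 7.30%, against 4.84 to 6.35% in the other 11. That share was 5.91 to 6.24% in NRF2 and 5.82 to 6.35% in EV cells with romidepsin, against 5.18 to 7.30% in NRF2 and 4.84 to 5.30% in EV cells with DMSO, so that romidepsin and DMSO did not overlap in EV cells. No pair of replicates was as close as sampling noise would make it (chi-square per degree of freedom 2.42 to 46.1), so each library was counted. The values 36.7 and 46.1 were those of the pairs with NRF2-DMSO 3, against 2.42 to 9.66 in the other pairs. Most of the summed level of the epithelial list came from keratins. The sum was 9416 to 9914 CPM in NRF2 and 6357 to 6503 CPM in EV cells with romidepsin. With DMSO it was 5476 to 6187 CPM in NRF2 and 3748 to 3785 CPM in EV cells. Cdh1 on that list ran the other way, at 227 ± 2.92 and 246 ± 10.3 CPM in NRF2 and EV cells with romidepsin, against 417 ± 9.78 and 353 ± 11.5 CPM with DMSO (SD, n = 3). Epcam averaged 7.23 ± 0.213 and 3.59 ± 0.525 CPM in NRF2 and EV cells with romidepsin, against 0.0657 ± 0.0304 and 0.0307 ± 0.0276 CPM with DMSO. The lung markers Nkx2-1, Napsa, Sftpc and Sftpb were at 0.317 CPM or less on average in every group. Of the haematopoietic markers, Adgre1 and Cd3e were at 0.0328 CPM or less and Ptprc at 0.549 CPM or less on average in every group. Cd68 averaged 68.4 ± 1.89 CPM in NRF2 and 49.6 ± 2.36 CPM in EV cells with romidepsin, against 4.03 ± 0.324 and 3.27 ± 0.636 CPM with DMSO (SD, n = 3). The summed fibroblast markers were at 11.3 to 14.1 and 9.16 to 9.82 CPM with romidepsin and 1.79 to 3.15 and 1.12 to 1.77 CPM with DMSO, and the endothelial ones at 6.40 to 8.28, 5.55 to 8.26, 4.0 to 4.96 and 5.67 to 10.1 CPM, again in NRF2 and EV cells with romidepsin and then with DMSO. The part of these markers and of the mitochondrial share in the results was not tested.

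Romidepsin lowered most of the replication genes in both lines. In NRF2 cells, 32 of the 37 fell and 4 rose, where edgeR called 39.3% of all 13502 genes tested lower and 40.5% higher (adjusted p under 0.05, Benjamini-Hochberg over all genes). The fall was at least 2-fold in 22 of the 37, against 12.6% of all genes. In EV cells, 28 fell and 4 rose, against 37.4% and 39.1% of all genes, and 9 fell at least 2-fold, against 8.82%. The median log2 fold change of the 37 was -1.16 in NRF2 cells and -0.69 in EV cells, where the median of all genes tested was 0.02 and 0.01. The 28 genes that fell in EV cells also fell in NRF2 cells, and the 4 that rose, Gins4, Rfc4, Prim2 and Rpa1, were the same in both lines. With upper-quartile or library-size scaling the median of all genes moved to 0.12 and 0.15 in NRF2 and to 0.12 and 0.13 in EV cells, and that of the 37 was -1.05 and -1.02 in NRF2 and -0.58 and -0.57 in EV cells. In bulk RNA, fewer cells in S phase and less RNA per cell cannot be told apart.

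**Figure D1:**
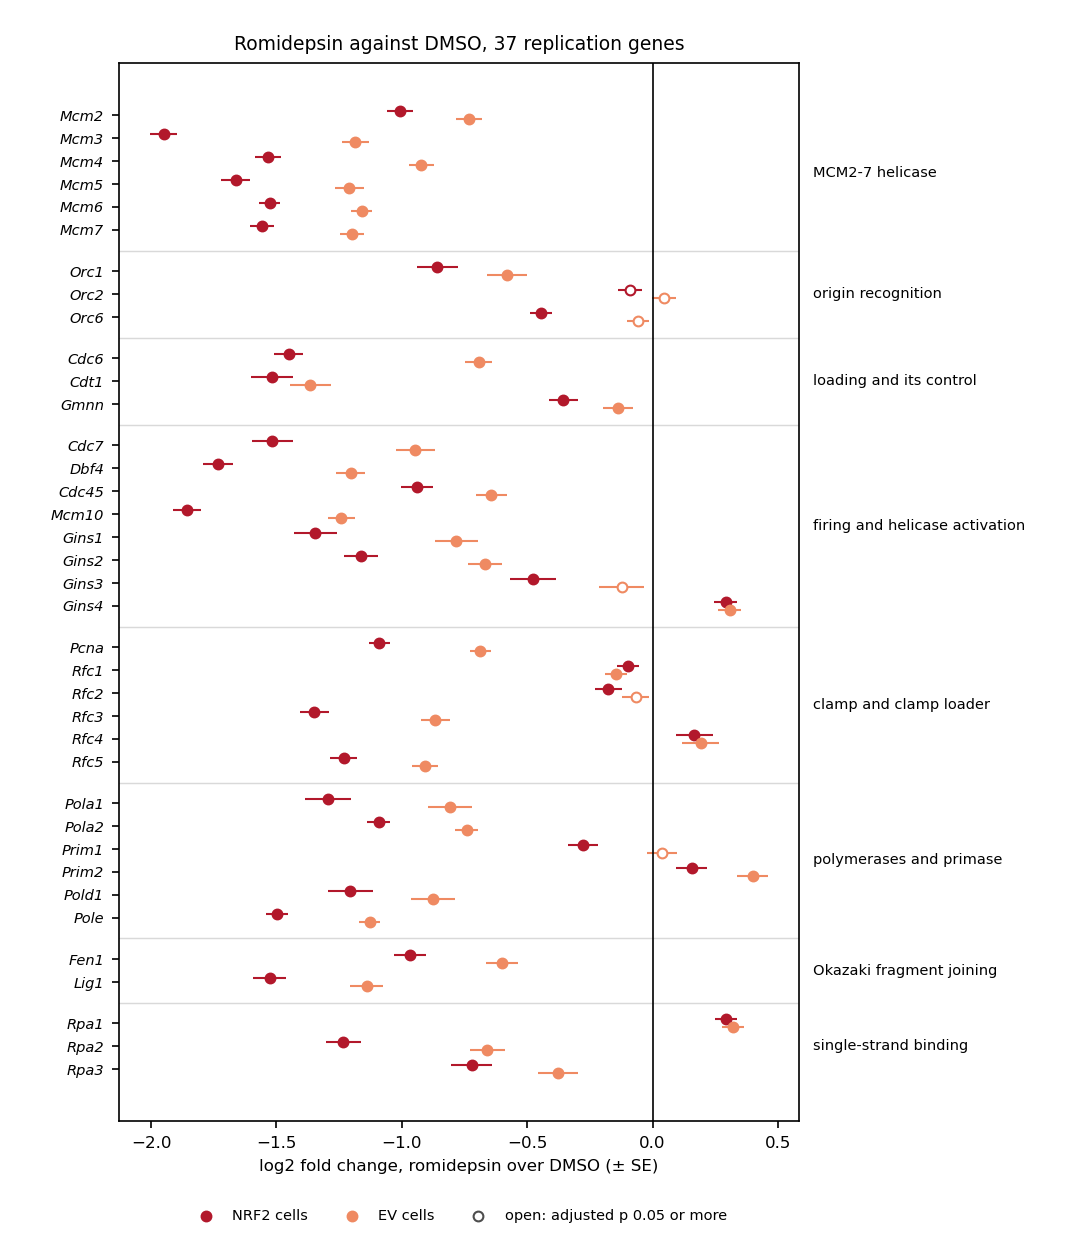
Log2 fold change of romidepsin over DMSO (x axis, bars are SE) of each of the 37 genes (y axis, by role) in NRF2 and EV cells; filled points passed edgeR's test and open points did not. Most points lie left of 0 and those of NRF2 cells mostly lie farther left, while Gins4, Rfc4, Prim2 and Rpa1 lie right of 0 in both lines.

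The summed level of the 37 genes was 2039.9 ± 43.3 CPM in NRF2 cells with romidepsin, 2601 ± 45.4 CPM in EV cells with romidepsin, 4104 ± 57.1 CPM in NRF2 cells with DMSO and 4198 ± 164 CPM in EV cells with DMSO (SD, n = 3). The romidepsin groups did not overlap with each other or with the DMSO groups, while the sums of the DMSO groups overlapped, at 4047 to 4161 CPM in NRF2 cells and 4014 to 4328 CPM in EV cells. Per kilobase of the principal transcript, Pcna was the highest of the 37 in every group, at 130.3 and 142 CPM per kb in NRF2 and EV cells with romidepsin and 278 and 229 CPM per kb in NRF2 and EV cells with DMSO. Orc1 was the lowest in every group, at 2.89, 3.82, 5.22 and 5.72 CPM per kb in the same order. With DMSO, Mcm7 came next after Pcna in both lines; with romidepsin, Gins4 did, at 69.1 CPM per kb in NRF2 and 66.4 CPM per kb in EV cells, where Mcm7 was at 44.6 and 60.7 CPM per kb.

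The promoters of the members that moved together can be read beside these values. RefSeq (GRCm38.p6) gave 35 promoters for 29 of the 37 genes, each running from 250 bases before to 50 bases after a transcript start. The E2F-type letters searched were TTTCCCGC, TTTGGCGC, TTTCGCGC and TTTGCCGC on both strands, where matches on opposite strands may overlap. They stood in 12 of the 35 promoters (34.3%), those of Mcm3, Mcm5, Mcm6, Mcm7, Orc1, Cdc6, Cdt1, Gins3, Rfc3, Pola1, Pold1 and Lig1, and in 744 of all 32851 promoters of that length (2.26%). With romidepsin all 12 of these genes fell in NRF2 cells and 11 of the 12 in EV cells (median log2 fold changes -1.48 and -1.01). Of the 17 genes whose promoters lacked the letters, 14 fell and 2 rose in NRF2 cells and 12 fell and 2 rose in EV cells (medians -0.97 and -0.64). Of the 8 members with no promoter there, 6 fell and 2 rose in NRF2 cells and 5 fell and 2 rose in EV cells (medians -0.76 and -0.40). Of all genes tested, 39.3% were called lower in NRF2 and 37.4% in EV cells. Whether the letters bear on the size of the fall was not tested. A match describes letters only, and its absence from this window says nothing about a factor. The promoters of 2 helicase genes and of both loading factors are shown for these letters and that of Rpa1, a gene that rose, for lacking them. Each is printed 5′ to 3′ on the strand of its gene, capitals marking the E2F-type letters and, in Rpa1 alone, CCAAT, which stood in 21 of the 35 promoters (60%) and 37.4% of all.
Mcm3 (chr1:20820263-20820562, minus strand): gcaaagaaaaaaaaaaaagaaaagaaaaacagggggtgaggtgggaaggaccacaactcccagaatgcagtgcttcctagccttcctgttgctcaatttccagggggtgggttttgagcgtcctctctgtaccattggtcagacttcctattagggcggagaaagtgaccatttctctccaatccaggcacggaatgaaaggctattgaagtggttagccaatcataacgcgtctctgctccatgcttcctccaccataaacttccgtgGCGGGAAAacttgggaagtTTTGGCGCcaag
Mcm6 (chr1:128359656-128359955, minus strand): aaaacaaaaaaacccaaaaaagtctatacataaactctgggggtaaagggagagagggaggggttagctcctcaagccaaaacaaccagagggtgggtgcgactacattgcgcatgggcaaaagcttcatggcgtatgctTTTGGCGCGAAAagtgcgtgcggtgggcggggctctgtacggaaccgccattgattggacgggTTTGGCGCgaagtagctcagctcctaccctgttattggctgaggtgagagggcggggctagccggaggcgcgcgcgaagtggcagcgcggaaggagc
Cdc6 (chr11:98907901-98908200, plus strand): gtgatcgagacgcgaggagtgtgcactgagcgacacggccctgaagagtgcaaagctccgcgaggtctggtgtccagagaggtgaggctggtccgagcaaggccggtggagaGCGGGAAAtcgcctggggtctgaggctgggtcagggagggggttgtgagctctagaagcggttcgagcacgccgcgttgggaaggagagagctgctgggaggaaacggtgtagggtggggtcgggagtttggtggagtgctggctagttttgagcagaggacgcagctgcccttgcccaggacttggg
Cdt1 (chr8:122567765-122568064, plus strand): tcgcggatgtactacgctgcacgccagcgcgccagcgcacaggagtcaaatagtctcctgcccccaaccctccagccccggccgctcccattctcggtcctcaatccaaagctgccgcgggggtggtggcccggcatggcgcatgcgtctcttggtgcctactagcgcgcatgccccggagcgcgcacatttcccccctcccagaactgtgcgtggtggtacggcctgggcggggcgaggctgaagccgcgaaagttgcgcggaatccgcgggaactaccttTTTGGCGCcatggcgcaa
Rpa1 (chr11:75348334-75348633, minus strand): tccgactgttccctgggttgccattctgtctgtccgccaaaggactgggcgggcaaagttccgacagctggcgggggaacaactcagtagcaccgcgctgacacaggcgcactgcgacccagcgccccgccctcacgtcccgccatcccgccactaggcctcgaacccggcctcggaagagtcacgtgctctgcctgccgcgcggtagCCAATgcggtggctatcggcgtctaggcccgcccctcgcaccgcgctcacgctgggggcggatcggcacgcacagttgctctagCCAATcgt
In the Mcm6 promoter, TTTGGCGCGAAA holds TTTGGCGC on one strand and TTTCGCGC on the other. The letters in Mcm3 and Cdt1 lie after the start, from base 20 and 39 in Mcm3 and from base 33 in Cdt1, counted from 1 at the start. Those in Mcm6 begin 110 and 47 bases before it and those in Cdc6 138 bases before it. The start is that of RefSeq. In GENCODE, used for gene positions below, Cdc6 begins at 98907801, so its printed promoter lies within the gene as annotated there.

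All 6 genes of the MCM2-7 helicase, the ring that unwinds parental DNA, fell in both lines, by at least 2-fold for all 6 in NRF2 cells and for 4 of the 6 in EV cells. Over all genes tested, 39.3% fell in NRF2 and 37.4% in EV cells, and 12.6% and 8.82% fell at least 2-fold. The summed level of the 6 genes was 520.0 ± 13.4 CPM in NRF2 cells with romidepsin, 729.8 ± 20.7 CPM in EV cells with romidepsin, 1483 ± 10.5 CPM in NRF2 cells with DMSO and 1533 ± 77.2 CPM in EV cells with DMSO (SD, n = 3). Mcm3 (GRCm38 chromosome 1, 20802968 to 20820312, minus strand) measured 45.4, 45.9 and 41.8 CPM in NRF2 cells with romidepsin, against 174, 173 and 167 CPM with DMSO. In EV cells it measured 78.1, 80.0 and 75.4 CPM with romidepsin, against 164, 186 and 181 CPM with DMSO. All romidepsin libraries lay below all DMSO libraries, and those of NRF2 cells lay below those of EV cells with romidepsin but among them with DMSO. The fall was 3.86-fold in NRF2 cells (log2 -1.95 ± 0.06, SE; edgeR adjusted p = 2.2e-15) and 2.27-fold in EV cells (log2 -1.19 ± 0.05; edgeR adjusted p = 1.2e-12), the largest fall of the 37 in NRF2 cells.

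Mcm5 (chromosome 8, 75109569 to 75128439, plus strand) had 84.9, 87.9 and 78.3 CPM in NRF2 cells with romidepsin, against 256, 255 and 285 CPM with DMSO. Its EV libraries held 116, 121 and 114 CPM with romidepsin, against 253, 283 and 276 CPM with DMSO. The log2 fold changes were -1.66 ± 0.06 in NRF2 and -1.21 ± 0.06 in EV cells (edgeR adjusted p = 3.3e-14 and 2.8e-12), again with no overlap between romidepsin and DMSO. Mcm4 stood at 82.4, 77.4 and 75 CPM in NRF2 cells with romidepsin, against 222, 227 and 231 CPM with DMSO. EV cells gave 117, 116 and 106 CPM with romidepsin, against 204, 221 and 218 CPM with DMSO. It fell by 1.53 ± 0.05 (log2) in NRF2 and by 0.92 ± 0.05 in EV cells (edgeR adjusted p = 1.8e-14 and 1.8e-11). Mcm2 fell least of the 6, with a log2 fold change of -1.01 in NRF2 and -0.73 in EV cells. Mcm6 and Mcm7 fell by 1.53 and 1.56 (log2) in NRF2 cells and by 1.16 and 1.20 in EV cells.

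Since the 6 proteins form a ring with 1 copy of each, the share of each gene in the summed per-kilobase level is given as a description, with no test. Mcm3 took 8.69 to 9.14% in the NRF2 and 11.1 to 11.3% in the EV libraries with romidepsin, against 11.9 to 12.4% in NRF2 and 11.9 to 12.2% in EV libraries with DMSO. Mcm2 went the other way, with 19.1 to 19.6% and 18.1 to 18.9% in NRF2 and EV cells with romidepsin, against 13.0 to 14.1% and 14.4 to 14.8% with DMSO. Mcm7 held the largest share in every group, with group means of 26.5 to 28.8%. Exons of Mcm7 share 321 bases with Ap4m1 on the opposite strand, and the sources used here do not state whether counting used strand.

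The origin recognition genes moved little next to the helicase. Orc1, the ATPase subunit whose level changes with the cell cycle, fell by 0.86 ± 0.08 (log2) in NRF2 and by 0.58 ± 0.08 in EV cells (edgeR adjusted p = 2.9e-08 and 3.6e-06). Orc2, a core subunit, measured 62.2, 62.0 and 63.5 CPM in NRF2 cells with romidepsin, against 65.3, 68.6 and 65.6 CPM with DMSO. EV libraries held 78.6, 86.0 and 79.7 CPM of Orc2 with romidepsin, against 76.5, 77.6 and 82.4 CPM with DMSO. It was the only one of the 37 that passed no romidepsin test (log2 -0.09 ± 0.05 in NRF2 and 0.05 ± 0.05 in EV cells; edgeR adjusted p = 0.1 and 0.4). Without NRF2-DMSO 3 it was called lower in NRF2 cells (log2 -0.12, edgeR adjusted p = 0.022), and with upper-quartile or library-size scaling it was called higher in EV cells (0.0058 and 0.0035). Orc6, the subunit that binds the others loosely, had 54.6, 54.1 and 56.2 CPM in NRF2 cells with romidepsin, against 75.9, 75.7 and 72.8 CPM with DMSO. EV cells showed 76.7, 77.3 and 75.7 CPM with romidepsin, against 76.9, 81.5 and 80.7 CPM with DMSO. It fell in NRF2 cells, where the groups did not overlap (log2 -0.45 ± 0.04, edgeR adjusted p = 4.1e-08). The EV change was -0.06 ± 0.04 (edgeR adjusted p = 0.23), with a positive sign under upper-quartile and library-size scaling. Orc2 shares 1150 exon bases with Nif3l1 and Orc6 171 with Vps35 on opposite strands.

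The 2 loading factors fell, and their inhibitor geminin changed less. Cdt1 (chromosome 8, 122568015 to 122573554, plus strand) measured 45.6, 43.8 and 48.1 CPM in NRF2 cells with romidepsin, against 140.3, 141 and 111 CPM with DMSO. In EV libraries Cdt1 stood at 64.6, 59.8 and 60.6 CPM with romidepsin, against 147, 167 and 163 CPM with DMSO. No romidepsin library reached a DMSO library, and the lowest DMSO value, 111 CPM, was that of the NRF2 library that stood apart. The fall was 2.86-fold in NRF2 cells (log2 -1.52 ± 0.08; edgeR adjusted p = 1.1e-10) and 2.58-fold in EV cells (-1.36 ± 0.08; edgeR adjusted p = 4.2e-10), the largest fall of the 37 in EV cells. Cdc6 (chromosome 11, 98907801 to 98923940, plus strand), the ATPase that works with Cdt1, had 15.4, 16.7 and 14.9 CPM in NRF2 cells with romidepsin, against 42.7, 43.7 and 42.5 CPM with DMSO. Its EV values were 25.8, 26.3 and 26.6 CPM with romidepsin, against 41.2, 42.8 and 43.4 CPM with DMSO. The 4 groups formed 3 levels, with NRF2 cells below EV cells under romidepsin and the DMSO libraries of both lines together above. Cdc6 fell 2.73-fold in NRF2 and 1.62-fold in EV cells (edgeR adjusted p = 1.5e-13 and 2.6e-09).

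Gmnn measured 33.0, 32.7 and 30.2 CPM in NRF2 cells with romidepsin, against 39.9, 40.0 and 43.3 CPM with DMSO. The EV libraries measured 31.2, 34.4 and 32.1 CPM with romidepsin, against 35.5, 35.3 and 36.7 CPM with DMSO. It fell by 0.36 ± 0.06 (log2) in NRF2 cells (edgeR adjusted p = 2.3e-05). In EV cells the change was -0.14 ± 0.06 (edgeR adjusted p = 0.041), a call lost under 14 of 21 alternatives, among them leaving out any EV-DMSO library, NRF2-DMSO 1 or 2, or EV-ROM 1 or 3 (0.053 to 0.15). The ratio of Gmnn to Cdt1 counts within a library was 0.627 to 0.747 in NRF2 cells with romidepsin, 0.483 to 0.575 in EV cells with romidepsin, 0.284 to 0.390 in NRF2 cells with DMSO and 0.212 to 0.242 in EV cells with DMSO. The 4 ranges did not overlap; the top of the range in NRF2 cells with DMSO was the library that stood apart.

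**Figure D2:**
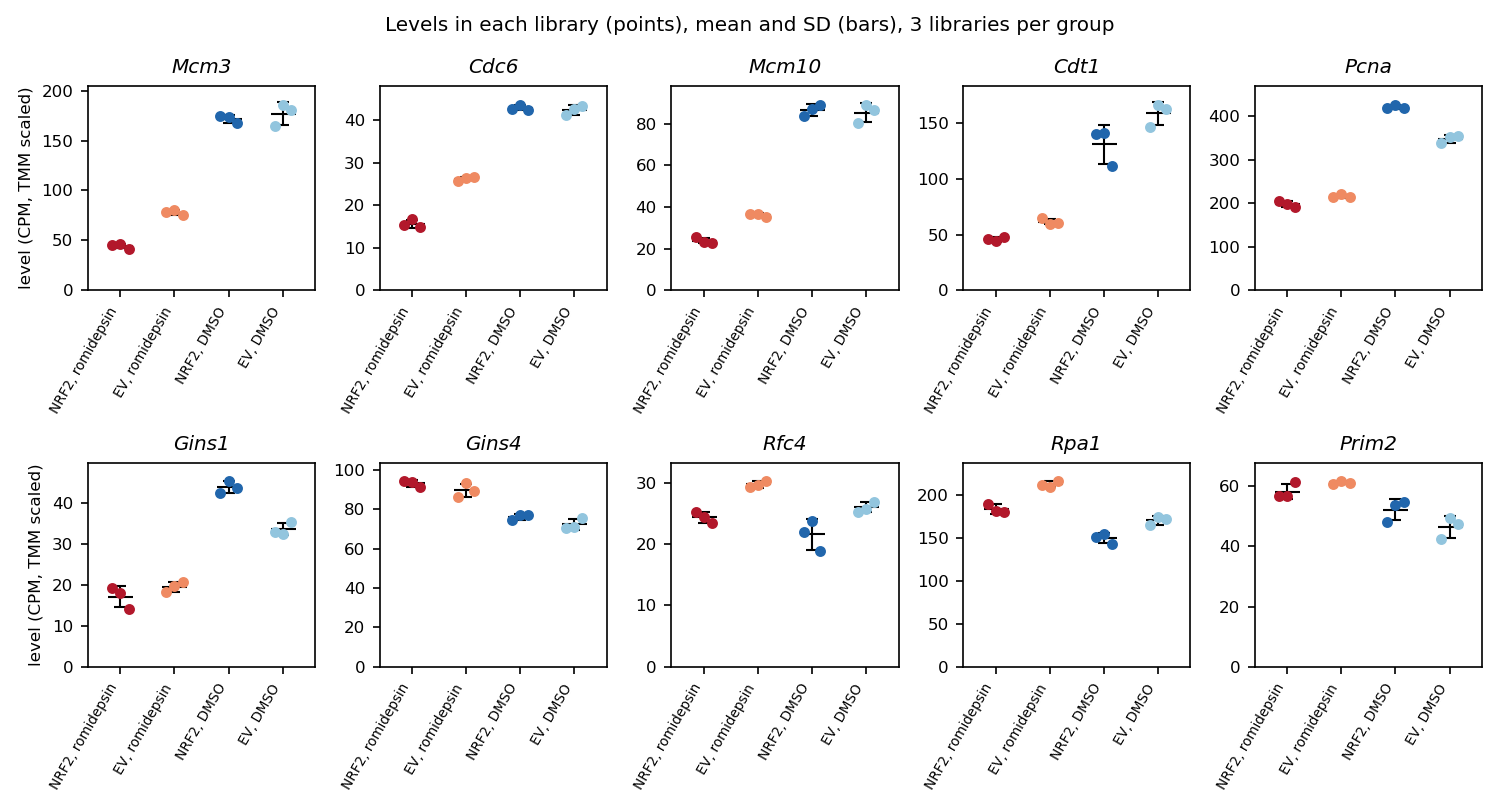
Level in CPM (y axis, from 0) of 10 of the genes in each of the 12 libraries (points), by group (x axis), with the mean and SD of 3 libraries as bars. Mcm3, Cdc6, Mcm10, Cdt1, Pcna and Gins1 lie lower with romidepsin than with DMSO, and Gins4 and Rpa1 lie higher.

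Of the 8 genes of origin firing and helicase activation, 7 fell in NRF2 cells and 6 in EV cells, and Gins4 rose in both. Over all genes tested, 39.3% were called lower and 40.5% higher in NRF2 cells, and 37.4% and 39.1% in EV cells. Dbf4, the regulatory subunit of the Cdc7 kinase, measured 42.7, 37.9 and 41.5 CPM in NRF2 cells with romidepsin, against 127, 133 and 145 CPM with DMSO. EV cells had 59.5, 64.1 and 59.3 CPM of Dbf4 with romidepsin, against 137, 142 and 143 CPM with DMSO. Both lines fell without overlap, 3.32-fold in NRF2 cells (log2 -1.73 ± 0.06; edgeR adjusted p = 2.4e-14) and 2.30-fold in EV cells (-1.20 ± 0.06; 3.0e-12 by edgeR). The kinase itself, Cdc7, had 11.9, 10.7 and 10.6 CPM in NRF2 cells with romidepsin, against 31.1, 28.8 and 35.3 CPM with DMSO. For EV cells the Cdc7 values were 17.5, 17.1 and 18.3 CPM with romidepsin, against 32.7, 33.5 and 35.5 CPM with DMSO. It fell by 1.52 ± 0.08 (log2) in NRF2 and by 0.95 ± 0.08 in EV cells (edgeR adjusted p = 9.2e-12 and 4.2e-09). Mcm10, which helps to open the loaded helicase, measured 25.4, 23.3 and 22.9 CPM in NRF2 cells with romidepsin, against 83.5, 87.1 and 89.0 CPM with DMSO. Mcm10 in EV cells measured 36.6, 36.7 and 35 CPM with romidepsin, against 80.5, 89.2 and 86.4 CPM with DMSO. Its fall was 3.62-fold in NRF2 cells (log2 -1.86 ± 0.06; edgeR adjusted p = 4.6e-15) and 2.36-fold in EV cells (-1.24 ± 0.05; 8.1e-13 by edgeR). Cdc45, a part of the active helicase, fell by 0.94 (log2) in NRF2 and 0.64 in EV cells.

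The 4 subunits of GINS, the complex that joins Cdc45 and MCM2-7, moved in different directions. Gins1 measured 19.2, 18 and 14.1 CPM in NRF2 cells with romidepsin, against 42.3, 45.3 and 43.7 CPM with DMSO. EV cells carried 18.2, 19.7 and 20.7 CPM of it with romidepsin, against 33.0, 32.5 and 35.2 CPM with DMSO. With DMSO the NRF2 libraries thus lay above the EV libraries, and with romidepsin the lines overlapped. Gins1 fell by 1.34 ± 0.08 (log2) in NRF2 and by 0.78 ± 0.09 in EV cells (edgeR adjusted p = 8.3e-11 and 1.8e-07), and Gins2 fell by 1.16 and 0.67. Gins4, on the other hand, had 94.4, 93.9 and 91.2 CPM in NRF2 cells with romidepsin, against 74.5, 77.0 and 76.9 CPM with DMSO. The EV values of Gins4 were 86.4, 93.3 and 89.1 CPM with romidepsin, against 70.4, 71.2 and 75.3 CPM with DMSO. It rose by 0.29 ± 0.05 (log2) in NRF2 and 0.31 ± 0.05 in EV cells (edgeR adjusted p = 1.4e-05 and 9.4e-06), with every romidepsin library above every DMSO library. Gins3 was low, at 10.3, 9.46 and 11.2 CPM in NRF2 cells with romidepsin, against 14.5, 13.4 and 15.1 CPM with DMSO. Its EV libraries gave 13.8, 13.7 and 14.4 CPM with romidepsin, against 13.5, 16.2 and 16.0 CPM with DMSO. It fell in NRF2 cells (log2 -0.48 ± 0.09, edgeR adjusted p = 1.4e-04), and the EV groups overlapped (-0.12 ± 0.09, edgeR adjusted p = 0.22). The ratio of Gins4 to Gins1 counts was 4.91 to 6.45 in NRF2 and 4.31 to 4.75 in EV cells with romidepsin, against 1.70 to 1.76 in NRF2 and 2.14 to 2.20 in EV cells with DMSO. Like those of Rfc4 to Rfc3, Prim2 to Pola1 and Rpa1 to Rpa2 below, it sets a gene that rose over one that fell. Such ratios restate these changes and are no further test of them. Gins2 shares 2758 exon bases with Gse1 on the opposite strand.

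Pcna, the sliding clamp, measured 206, 197 and 191 CPM in NRF2 cells with romidepsin, against 418, 426 and 419 CPM with DMSO. Pcna in EV cells measured 214, 220.0 and 214 CPM with romidepsin, against 338, 352 and 354 CPM with DMSO. The romidepsin libraries of NRF2 cells lay just below those of EV cells, while with DMSO the NRF2 libraries were the higher ones. Pcna fell 2.13-fold in NRF2 (log2 -1.09 ± 0.04) and 1.61-fold in EV cells (-0.69 ± 0.04; edgeR adjusted p = 9.7e-14 and 6.7e-11). The 5 subunits of its loader RFC split. Rfc3 and Rfc5 fell, by 1.35 and 1.23 (log2) in NRF2 and by 0.87 and 0.91 in EV cells. The summed level of Pcna and the 5 subunits was 446 ± 15 and 522 ± 5.14 CPM in NRF2 and EV cells with romidepsin, against 751 ± 7.24 and 728 ± 20.7 CPM with DMSO (SD, n = 3).

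The large subunit Rfc1 had 122, 113 and 113 CPM in NRF2 cells with romidepsin, against 122, 123 and 128 CPM with DMSO. Rfc1 in EV cells had 139.8, 144 and 139 CPM with romidepsin, against 156, 155 and 156 CPM with DMSO. Its log2 fold changes were -0.10 ± 0.04 in NRF2 and -0.15 ± 0.04 in EV cells (edgeR adjusted p = 0.045 and 0.0055). These calls hang on the scaling, since both were lost with upper-quartile and library-size scaling and the NRF2 value changed sign; the NRF2 call was also lost without EV-DMSO 2, any EV-ROM library, or NRF2-ROM 2 or 3 (edgeR adjusted p = 0.05 to 0.16). Rfc2 measured 62.6, 59.6 and 57.4 CPM in NRF2 cells with romidepsin, against 68.8, 68.0 and 66.1 CPM with DMSO. The EV libraries of Rfc2 measured 66.7, 64.1 and 66.0 CPM with romidepsin, against 63.6, 72.2 and 70.5 CPM with DMSO. Its NRF2 fall was small, at -0.18 ± 0.05 (log2; edgeR adjusted p = 0.0053), and was lost under upper-quartile and library-size scaling (0.24 and 0.52). The EV change was -0.07 ± 0.05 (edgeR adjusted p = 0.25); it was called lower without EV-DMSO 1 (0.039) and had a positive sign under upper-quartile and library-size scaling. Rfc4 stood at 25.3, 24.4 and 23.4 CPM in NRF2 cells with romidepsin, against 22.1, 23.8 and 18.9 CPM with DMSO. EV cells held 29.3, 29.7 and 30.3 CPM of Rfc4 with romidepsin, against 25.3, 25.8 and 26.9 CPM with DMSO. It rose by 0.17 ± 0.07 (log2) in NRF2 cells, with overlap between the groups, and by 0.19 ± 0.07 in EV cells, without it (edgeR adjusted p = 0.049 and 0.024). The NRF2 call was lost without any 1 of 10 libraries, all but NRF2-DMSO 2 and NRF2-ROM 3 (edgeR adjusted p = 0.058 to 0.36), and the EV call without EV-DMSO 1 or 2 or EV-ROM 2 or 3 (0.053 to 0.075). The ratio of Rfc4 to Rfc3 counts was 1.33 to 1.46 in NRF2 and 1.11 to 1.16 in EV cells with romidepsin, against 0.417 to 0.555 in NRF2 and 0.535 to 0.564 in EV cells with DMSO. Rfc2 shares 952 exon bases with Lat2, Rfc5 499 with Wsb2 and Rfc4 194 with Eif4a2 on opposite strands.

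Among the polymerase and primase genes, the catalytic subunits Pola1, Pold1 and Pole and the accessory subunit Pola2 fell in both lines, while of the 2 primase genes Prim1 was called lower in NRF2 cells and not in EV cells and Prim2 rose in both lines. Pola1 measured 29.3, 30.4 and 33.0 CPM in NRF2 cells with romidepsin, against 70.3, 72.3 and 85.2 CPM with DMSO. Pola1 in EV cells measured 54.1, 52.0 and 42.3 CPM with romidepsin, against 91.2, 84.6 and 84.4 CPM with DMSO. It fell by 1.30 ± 0.09 (log2) in NRF2 and by 0.81 ± 0.09 in EV cells (edgeR adjusted p = 4.2e-09 and 7.2e-07). Pola2 had 77.1, 75.7 and 75.2 CPM in NRF2 cells with romidepsin, against 164, 157 and 165 CPM with DMSO. EV libraries carried 85.5, 83.6 and 81.0 CPM of Pola2 with romidepsin, against 133, 146 and 139 CPM with DMSO. It too fell without overlap, by 1.09 ± 0.05 and 0.74 ± 0.05 (log2; edgeR adjusted p = 3.6e-13 and 9.9e-11). Pole, of the leading-strand polymerase, fell most of the 6, by 1.5 in NRF2 and 1.13 in EV cells, and Pold1, of the lagging-strand polymerase, by 1.21 and 0.88.

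Prim1, the catalytic primase subunit, measured 46.1, 41.5 and 39.3 CPM in NRF2 cells with romidepsin, against 50.3, 51.6 and 52.0 CPM with DMSO. Prim1 in EV cells measured 55.0, 57.9 and 52.6 CPM with romidepsin, against 51.0, 54.2 and 56.1 CPM with DMSO. It fell in NRF2 cells (log2 -0.28 ± 0.06, edgeR adjusted p = 4.6e-04) with an EV value of 0.04 ± 0.06 (edgeR adjusted p = 0.59), where upper-quartile and library-size scaling called it higher (0.03 and 0.02). Prim2, the large primase subunit, had 56.8, 56.7 and 61.3 CPM in NRF2 cells with romidepsin, against 48.2, 53.8 and 54.8 CPM with DMSO. Prim2 in EV libraries had 60.9, 61.7 and 61.3 CPM with romidepsin, against 42.4, 49.5 and 47.6 CPM with DMSO. It rose by 0.16 ± 0.06 (log2) in NRF2 and 0.40 ± 0.06 in EV cells, without overlap (edgeR adjusted p = 0.028 and 1.3e-05). The NRF2 call was lost without NRF2-DMSO 1 or NRF2-ROM 3 (edgeR adjusted p = 0.15 and 0.12). The ratio of Prim2 to Pola1 counts was 1.86 to 1.94 in NRF2 and 1.13 to 1.45 in EV cells with romidepsin, against 0.643 to 0.744 in NRF2 and 0.464 to 0.585 in EV cells with DMSO.

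The Okazaki fragment genes fell in both lines. Fen1, the flap nuclease, measured 59.4, 57.8 and 56.6 CPM in NRF2 cells with romidepsin, against 119.9, 120.0 and 99.3 CPM with DMSO. Fen1 in EV cells stood at 63.6, 62.1 and 64.5 CPM with romidepsin, against 90.0, 98.4 and 99.6 CPM with DMSO. It fell by 0.97 ± 0.06 (log2) in NRF2 and 0.60 ± 0.06 in EV cells (edgeR adjusted p = 2.0e-10 and 1.6e-07), and the ligase gene Lig1 fell more, by 1.53 and 1.14. Fen1 shares 1909 exon bases with the antisense transcript Gm10143.

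RPA, which covers single-stranded DNA, also held genes that went opposite ways. Rpa1 (chromosome 11, 75298166 to 75348324, minus strand), the large subunit, had 190.1, 181 and 179.9 CPM in NRF2 cells with romidepsin, against 151, 155 and 143 CPM with DMSO. Rpa1 in EV cells had 212, 209.7 and 216 CPM with romidepsin, against 165, 174 and 172 CPM with DMSO. It rose by 0.29 ± 0.04 (log2) in NRF2 and 0.32 ± 0.04 in EV cells, without overlap (edgeR adjusted p = 8.1e-06 and 3.5e-06). Rpa2, the middle subunit, measured 17.8, 17.8 and 15.9 CPM in NRF2 cells with romidepsin, against 40.5, 43.9 and 36.9 CPM with DMSO. Rpa2 in EV cells measured 26.0, 25.2 and 24.7 CPM with romidepsin, against 38.1, 40.2 and 41.5 CPM with DMSO. It fell by 1.23 ± 0.07 (log2) in NRF2 and 0.66 ± 0.07 in EV cells (edgeR adjusted p = 2.3e-11 and 9.8e-08), and Rpa3, the small subunit, by 0.72 and 0.38. The summed RPA level was 217 ± 7.87 and 259.9 ± 2.95 CPM in NRF2 and EV cells with romidepsin, against 216 ± 11.2 and 239 ± 7.30 CPM with DMSO (SD, n = 3). The ratio of Rpa1 to Rpa2 counts was 10.2 to 11.3 in NRF2 and 8.13 to 8.76 in EV cells with romidepsin, against 3.53 to 3.87 in NRF2 and 4.15 to 4.33 in EV cells with DMSO.

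Romidepsin lowered many of these genes more in NRF2 than in EV cells. The difference between the 2 romidepsin effects was tested itself, as the interaction of line and treatment: edgeR called 24 of the 37 lower, that is with the more negative effect in NRF2 cells, against 10.2% of all genes tested, and 0 of the 37 higher, against 5.53%. At an unadjusted edgeR p under 0.05, 30 of the 37 passed, against 3922 of all 13502 genes tested. The estimate was below 0 in 36 of the 37, all but Rfc1, with a median of -0.36 (log2), where the median of all genes was -0.02. Without NRF2-DMSO 3, 29 of the 37 were called, Cdt1, Orc1, Pold1, Prim2 and Rpa3 among them. Calls also grew over all genes, with 2127 of 13748 lower in that fit, against 1380 of 13502 with all libraries. Gins3 was called without NRF2-DMSO 2 (edgeR adjusted p = 0.044) and Rpa3 without NRF2-ROM 1 (0.0097). The same libraries enter this test and the comparisons within each line, which therefore share them.

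The largest differences were those of Mcm3 (log2 -0.76 ± 0.08; edgeR adjusted p = 5.0e-06) and Cdc6 (-0.76 ± 0.08; 8.9e-06 by edgeR). Next came Mcm10 (-0.62 ± 0.08; 5.3e-05 by edgeR), Mcm4 (-0.61 ± 0.07; 2.5e-05), Rpa2 (-0.57 ± 0.10; 7.6e-04) and Cdc7 (-0.57 ± 0.11; 0.0024). All 6 helicase genes were called, as were 6 of the 8 firing genes and both Okazaki fragment genes. Cdt1, the partner of Cdc6, showed a difference of -0.15 ± 0.11 that did not pass (edgeR adjusted p = 0.41); without NRF2-DMSO 3 it was -0.28 and passed (0.0038). The genes that rose with romidepsin had differences of -0.02 ± 0.07 for Gins4, -0.02 ± 0.10 for Rfc4, -0.02 ± 0.06 for Rpa1 and -0.24 ± 0.09 for Prim2, none past the threshold (edgeR adjusted p = 0.91, 0.91, 0.84 and 0.067). For Prim2 the call came with the same library left out (0.025), without NRF2-DMSO 1 (0.019), or with no filter (0.039). Calls that hung on 1 library were Mcm2, lost without EV-ROM 1 (edgeR adjusted p = 0.051), and Pola1, lost without EV-ROM 2 or NRF2-ROM 2 (0.052 and 0.05). Prim1 lost its call without EV-DMSO 1, EV-ROM 2, or NRF2-ROM 2 or 3 (0.051 to 0.065). Cdc45 lost its call without EV-DMSO 1 or 2, NRF2-DMSO 2, EV-ROM 1 or 3, or NRF2-ROM 2 or 3 (0.051 to 0.086).

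**Figure D3:**
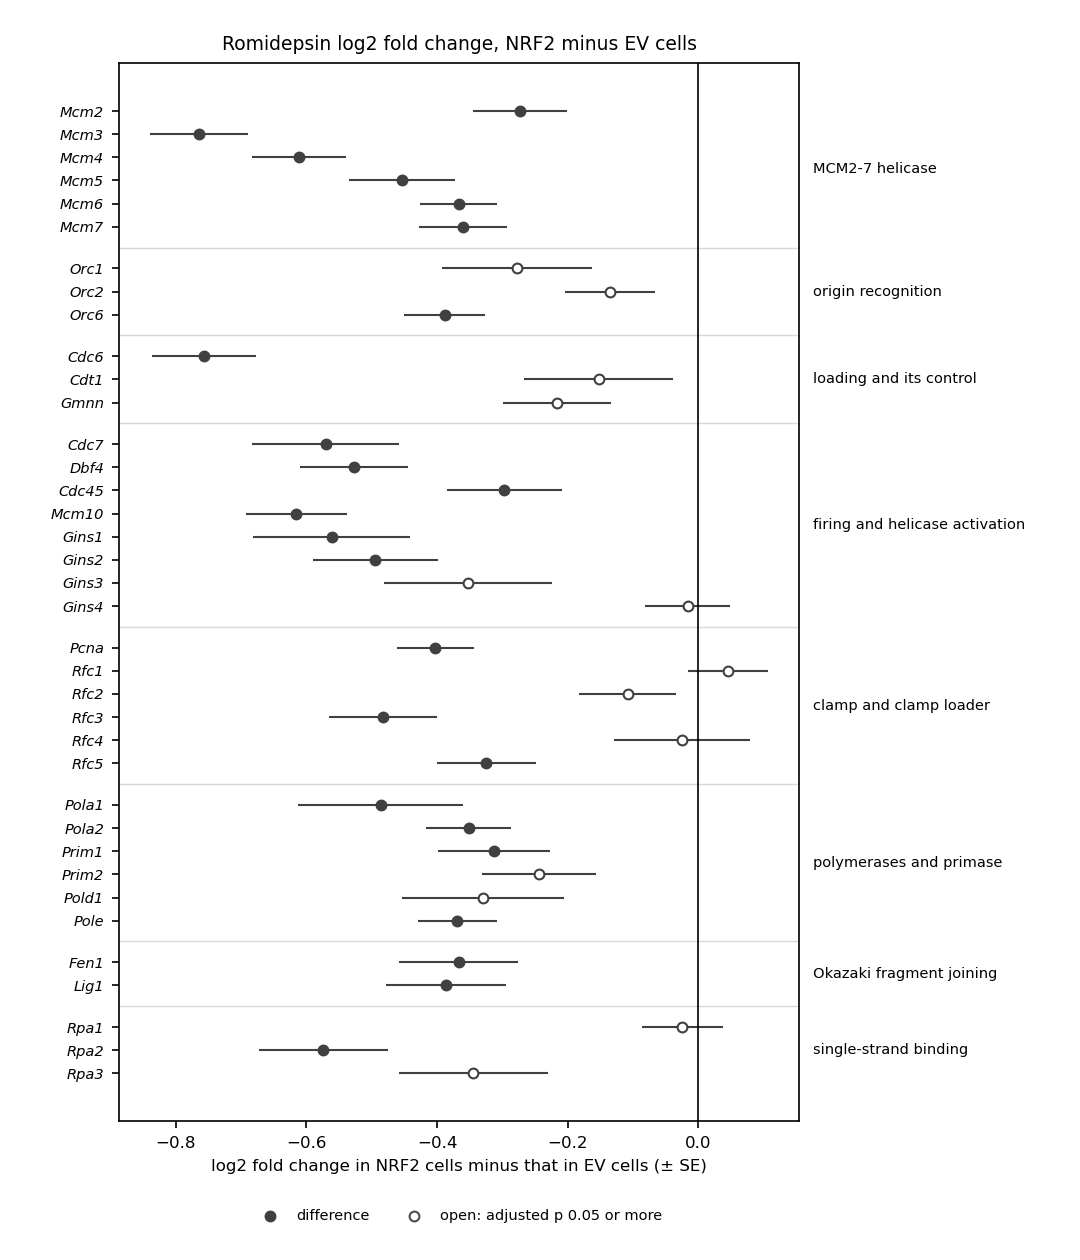
Romidepsin log2 fold change in NRF2 cells minus that in EV cells (x axis, bars are SE) for each of the 37 genes (y axis, by role); filled points passed edgeR's test. Points left of 0 mark a stronger fall or weaker rise in NRF2 cells, and Mcm3 and Cdc6 lie farthest left, both at -0.76.

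Compared under romidepsin alone, NRF2 cells had lower levels than EV cells of 32 of the 37 genes and higher levels of 0, where edgeR called 22.4% of all genes lower and 23.0% higher. The median log2 difference of the 37 was -0.43 and that of all genes -0.0028, and no member differed 2-fold. Mcm3 had the largest difference, -0.81 ± 0.06 (edgeR adjusted p = 6.7e-09), then Cdc6 with -0.74 ± 0.06, Pola1 with -0.68 ± 0.09 and Cdc7 with -0.67 ± 0.08 (edgeR adjusted p = 4.7e-08, 3.7e-05 and 6.4e-06). The values given above for each show no overlap between the lines under romidepsin. The 5 genes that did not pass were Gins4, Gmnn, Prim2, Fen1 and Gins1, at 0.06, -0.02, -0.08, -0.13 and -0.18. The call of Pola2 was lost without EV-ROM 1 or 2 or NRF2-ROM 2 or 3 (edgeR adjusted p = 0.074 to 0.11). That of Rfc2 (-0.13; 0.05 by edgeR once rounded, just under the threshold) was lost without EV-DMSO 2 or 3, any EV-ROM library, or NRF2-ROM 2 or 3 (0.051 to 0.18). Fen1 was called without NRF2-DMSO 3 (0.0066), and Gins1 without NRF2-ROM 1 (log2 -0.28, 0.03 by edgeR). Orc2, which passed neither romidepsin test, was lower in NRF2 cells here (-0.38 ± 0.05, edgeR adjusted p = 7.6e-06). It was also called lower in NRF2 cells with DMSO (-0.25), and its interaction was not called (-0.14).

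With DMSO the lines were closer. In NRF2 cells 6 of the 37 were higher and 9 lower than in EV cells, 16.2% and 24.3% of them, against 19.3% and 16.9% of all genes tested. The estimate was below 0 in 26 of the 37 and above 0 in 11, the median log2 difference was -0.08 against -0.01 for all genes, and no member differed 2-fold. With library-size scaling 5 of the 37 were higher and 13 lower, where 2307 and 2894 of all 13502 genes were. Of the 6 helicase genes, Mcm2 alone was called (-0.16 ± 0.05; edgeR adjusted p = 0.023), and that call was lost without EV-DMSO 2 or 3 (0.14 and 0.075). The higher genes were Gins1 (0.38 ± 0.08; edgeR adjusted p = 0.0011), Pcna (0.28 ± 0.04; 4.6e-05 by edgeR), Fen1 (0.24 ± 0.06; 0.0067), Pola2 (0.22 ± 0.05; 9.9e-04), Gmnn (0.19 ± 0.06; 0.015) and Prim2 (0.17 ± 0.06; 0.043). The libraries of the lines did not overlap for Gins1, Pcna, Pola2 and Gmnn and overlapped for Fen1 and Prim2. The largest lower differences were those of Rfc1 (-0.33 ± 0.04; edgeR adjusted p = 1.3e-05) and Cdt1 (-0.28 ± 0.08; 0.012 by edgeR). The Cdt1 call was lost without EV-DMSO 2 (0.052), as were those of Gmnn (0.053) and Rfc5 (0.057), and Rfc4 lost its call without EV-DMSO 3 (0.052). Prim2 lost its call without EV-DMSO 1 or 3, NRF2-DMSO 2, NRF2-ROM 2, or any EV-ROM library (0.055 to 0.21), and Gins2 without any 1 of 10 libraries, all but EV-DMSO 1 and NRF2-DMSO 2 (0.051 to 0.17). Pcna and Gins1 stood higher in NRF2 cells with DMSO and not with romidepsin, where Pcna was lower (-0.13 ± 0.04; edgeR adjusted p = 0.019, lost without EV-ROM 2 or NRF2-ROM 2 or 3). For both, the romidepsin effect differed between the lines by -0.40 ± 0.06 and -0.56 ± 0.12 (edgeR adjusted p = 1.8e-04 and 0.0041).

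**Figure D4:**
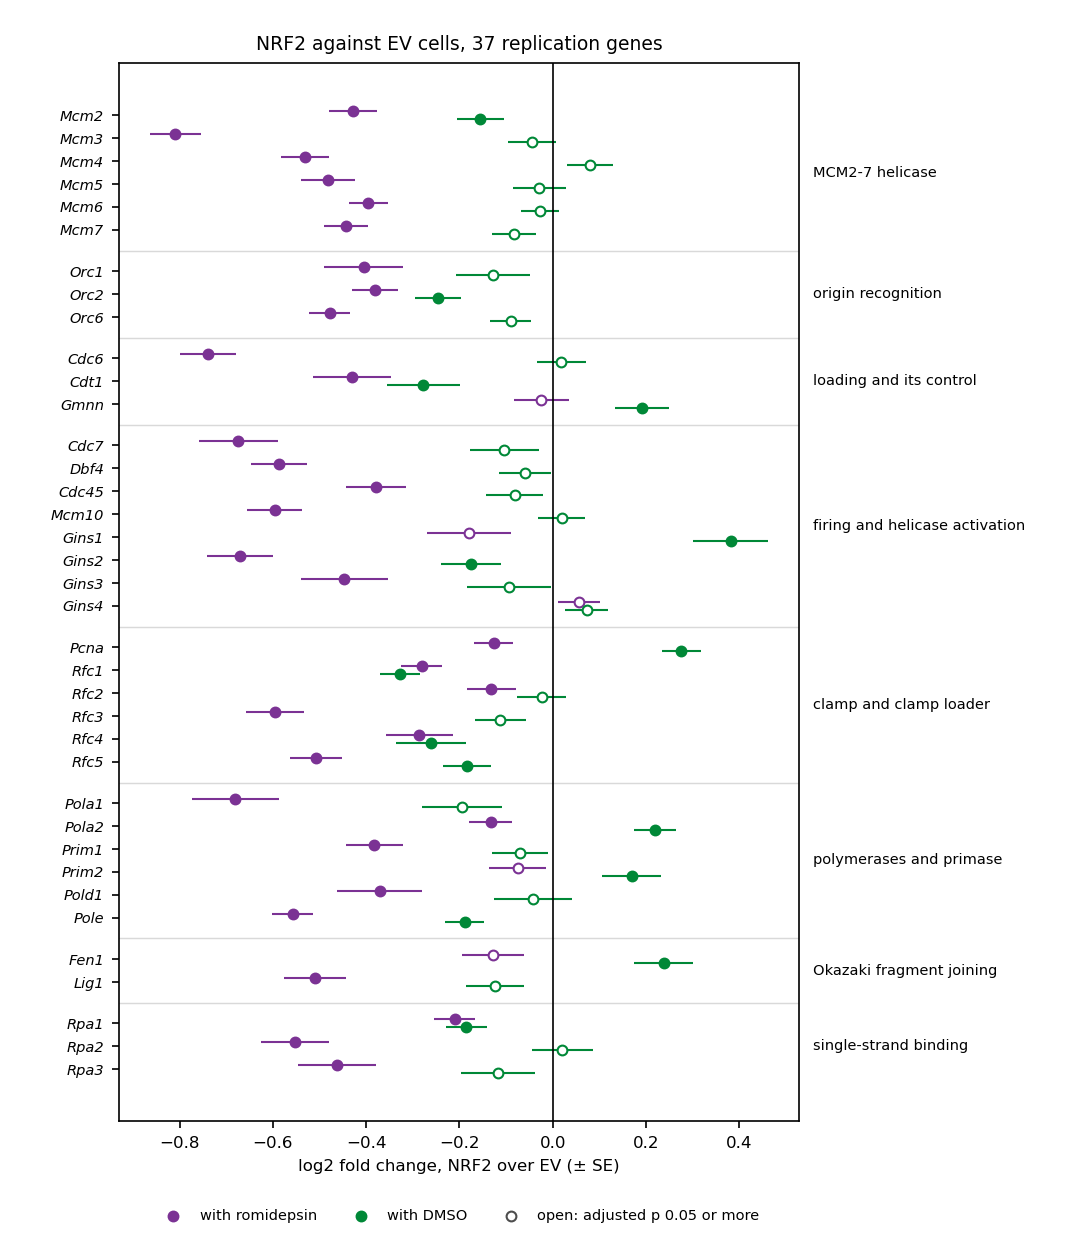
Log2 fold change of NRF2 over EV cells (x axis, bars are SE) of each of the 37 genes (y axis, by role) with romidepsin and with DMSO; filled points passed edgeR's test. With romidepsin nearly all points lie left of 0, and with DMSO they lie on both sides between -0.33 and 0.38.

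A second list held 37 other replication genes, chosen with earlier results of these data known, listed in the same way. With romidepsin 32 of the 37 fell and 2 rose in NRF2 cells, against 39.3% and 40.5% of all genes tested. In EV cells 28 fell and 4 rose, against 37.4% and 39.1% of all genes. The medians were -1.01 in NRF2 and -0.71 in EV cells. Mtbp, a partner of the firing factor treslin, fell most, by 2.11 ± 0.07 (log2) in NRF2 and 1.57 ± 0.07 in EV cells (edgeR adjusted p = 1.8e-14 and 7.9e-13). Clspn, which encodes the fork protein claspin, fell by 1.95 and 1.07, the nuclease and helicase gene Dna2 by 1.90 and 1.20, and Rnaseh2b, of the ribonuclease that removes RNA from DNA, by 1.87 and 1.45. Pold4, the small subunit of polymerase delta, went against the list, at 45.8, 47.5 and 48.7 CPM in NRF2 cells with romidepsin, against 32.6, 35.4 and 28.2 CPM with DMSO. Pold4 in EV cells measured 36.8, 37.1 and 42.2 CPM with romidepsin, against 17.4, 17.4 and 19.7 CPM with DMSO. It rose by 0.55 ± 0.08 (log2) in NRF2 and 1.08 ± 0.08 in EV cells (edgeR adjusted p = 3.8e-06 and 1.8e-09), where Pold1 of the same polymerase fell in both. The origin recognition gene Orc4 rose in both lines (0.18 and 0.27), and Orc3 and Chtf18 rose in EV cells (0.20 and 0.30). The interaction was called lower for 20 of the 37, against 10.2% of all genes, and higher for 0, against 5.53%. At an unadjusted edgeR p under 0.05, 25 of the 37 passed, against 3922 of all 13502 genes. Dscc1, of a second clamp loader, had the largest difference (-0.99 ± 0.15, edgeR adjusted p = 2.7e-04), then Clspn (-0.87). With DMSO 6 of the 37 were higher and 6 lower in NRF2 cells, 16.2% each, near the 19.3% and 16.9% of all genes. Under romidepsin 1, Pold4, was higher and 25 were lower, against 23.0% and 22.4% of all genes.

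The 7 genes of the checkpoint clamp and its kinases, which sense stalled forks, gave smaller medians. In both lines 5 of the 7 fell and 1 rose with romidepsin, with medians of -0.30 in NRF2 and -0.29 in EV cells. Of all genes tested, 39.3% fell and 40.5% rose in NRF2 cells, and 37.4% fell and 39.1% rose in EV cells. Chek1, the checkpoint kinase, fell most, by 1.92 ± 0.09 (log2) in NRF2 and 1.42 ± 0.08 in EV cells (edgeR adjusted p = 9.4e-13 and 5.0e-11), and Hus1, a clamp subunit, by 1.12 and 0.97. Rad17, the clamp's loader, which works with the small RFC subunits, rose by 0.37 ± 0.06 and 0.41 ± 0.06 (edgeR adjusted p = 2.0e-05 and 7.9e-06). Chek1 was the only one of the 7 called for the interaction (-0.50 ± 0.12, edgeR adjusted p = 0.0095). Of all genes, 10.2% were called lower for it and 5.53% higher.

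**Figure D5:**
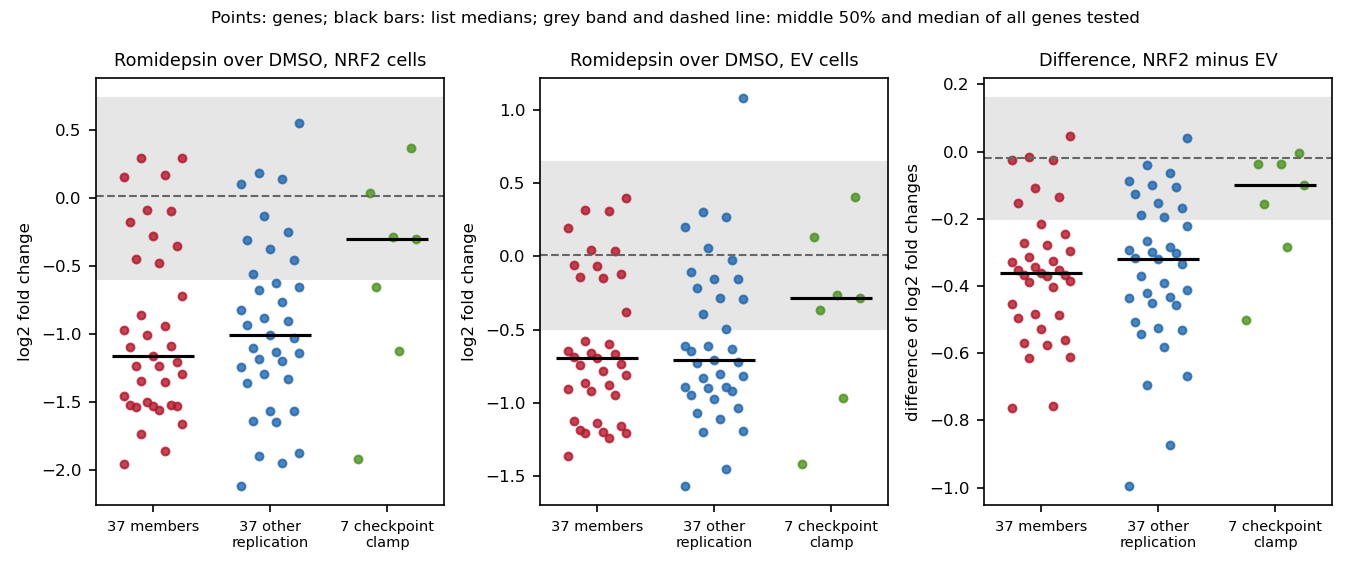
Log2 fold change of romidepsin over DMSO (y axis) in NRF2 cells and in EV cells, and their difference (right), for the 37 genes, the 37 other replication genes and the 7 checkpoint genes (points), with list medians as bars; the grey band and dashed line give the middle 50% and the median of all genes tested. The medians of both lists of 37 lie below the band in all 3 panels, and that of the checkpoint genes lies within it.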

How the data were processed

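Poly-A RNA libraries (TruSeq) from 12 KP1 cultures in 4 groups of 3 were analysed. The authors deposited estimated counts per gene, whole numbers in the table, and a second table of normalized values, used here only for a check. Per the submitters' processing notes, reads were converted with bcl2fastq 2.19 and quantified with kallisto 0.44.0 on GRCm38, and DESeq2 (version not given in the sources used here) was used; strand use in counting is not given there. The deposited normalized signal equals the counts divided by 1 factor per library, the same as DESeq2's size factor.

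From the counts, edgeR 4.0.16 (R 4.3.3) filtered genes with filterByExpr, which left 13502 of 35013, scaled libraries with TMM and fitted 1 robust quasi-likelihood model to the 12 libraries, whose 4 group means leave 8 degrees of freedom. Contrasts were tested two-sided and p-values adjusted with Benjamini-Hochberg over all genes tested; a gene was called below 0.05. Each SE is the size of the log2 fold change over the root of its F statistic. CPM are counts scaled by each library's total over the genes that passed the filter, times its TMM factor. CPM per kb divide them by the principal transcript's length in GENCODE M21 (GRCm38), which also gave positions and exon overlaps. Replicate numbers were checked for pairing by each library's deviations of log2 CPM from its group mean, gene by gene. Between same-numbered libraries these deviations correlated at -0.123 to 0.0625 over 18 pairs, so the numbers were taken not to pair libraries. On simulated counts the fit was tested with genes changed by known folds.

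The members, the lists and the rule for named genes were chosen with earlier results of these data known. The rule gave full values to the 4 members with the largest called change in each comparison, to those called against the majority and to those not called with romidepsin. Other settings tried were scaling by RLE, upper quartile or library size, other filters, DESeq2 1.42.0, limma-voom 3.58.1, a replicate block, each comparison's groups fitted alone, and leaving out each library. For 1 marker gene, values are not reported here.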

Additional observations from a re-analysis of the deposited data

Results flagged for a closer look

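For 24 of the 37 genes the effect of romidepsin differed between the lines by edgeR's test of the interaction itself, with adjusted p below 0.05; the values are the log2 fold change of romidepsin in NRF2 cells minus that in EV cells, and all 24 are negative. Among the helicase genes the difference was -0.27 for Mcm2, -0.76 for Mcm3, -0.61 for Mcm4, -0.45 for Mcm5, -0.37 for Mcm6 and -0.36 for Mcm7. In origin recognition and loading it was -0.39 for Orc6 and -0.76 for Cdc6. In origin firing it was -0.57 for Cdc7, -0.53 for Dbf4, -0.30 for Cdc45, -0.62 for Mcm10, -0.56 for Gins1 and -0.49 for Gins2. For the clamp and its loader it was -0.40 for Pcna, -0.48 for Rfc3 and -0.32 for Rfc5. Among the polymerase and primase genes it was -0.49 for Pola1, -0.35 for Pola2, -0.31 for Prim1 and -0.37 for Pole. It was -0.37 for Fen1, -0.39 for Lig1 and -0.57 for Rpa2.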

How the results depend on the processing

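Under 21 alternatives per comparison (20 for the interaction), 32 of the 36 members called with romidepsin in NRF2 cells and 29 of the 32 in EV cells were called in every one, as were 29 of the 32 lower in NRF2 cells under romidepsin, 20 of the 24 in the interaction and 8 of the 15 with DMSO. Members called lower in NRF2 cells with DMSO numbered 5 when the 2 groups were fitted alone, and 5 to 10 when 1 library was left out (5 without EV-DMSO 2). Members called higher with romidepsin in NRF2 cells numbered 2 with no filter, and 2 to 4 when 1 library was left out (2 without NRF2-DMSO 1). The NRF2 romidepsin value of Rfc1 turned to 0.0099 with upper-quartile and 0.0407 with library-size scaling, where the scaling moves the median of all genes up. Leaving out 1 library gave 21 to 29 members called for the interaction and, without NRF2-DMSO 3, 2127 genes of all called lower for it, against 1380.

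With a replicate block the interaction was called lower for 24 members and romidepsin's effect for 31 lower and 3 higher in NRF2 and 27 lower in EV cells; the calls lost were those of Gmnn in EV (edgeR adjusted p = 0.058) and of Rfc1 and Rfc4 in NRF2 cells (0.064 and 0.06), and Rfc2 between the lines under romidepsin (0.074). In their deviations from group means, 3 of 12 libraries correlated best with a library of their own number, so the numbers are not taken as pairs. The block changed no other member's call. The lowest count of a member in a library was 153 (Orc1), and with few counts only larger changes are detectable.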
